A study of Mus musculus with 6 samples.

Results

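The carbonic anhydrase and acid or lactate export genes Car9, Car12, Car2, Car13, Slc16a1, Slc16a3, Bsg and Slc4a7 were read from the gene counts of TuBo cells with and without p140Cap. These 8 genes were taken by symbol from the 21960 genes in the counts, and Car9 was chosen by its measured rise in p140Cap cells. The values of Car9 in this contrast are therefore given as a description, with no test. The other genes were listed with earlier results of the same contrast known, so their p-values are not independent evidence for the list. Enough reads for a test were found for 7 of the 8 genes, the exception being Slc16a3.

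TuBo is an epithelial line of mammary tumor origin, from the BALB/c-MMTV-NeuT mouse, a strain in which the MMTV promoter drives an activated neu (HER2) oncogene in the mammary epithelium, and it serves as a model of HER2+ breast cancer. Both groups are TuBo cells and carry this transgene. The mock group (3 libraries) consists of control cells whose genotype is labelled wt, and the p140Cap group (3 libraries) consists of cells that over-express p140Cap from a pBabe-puro retrovirus, selected in puromycin. The p140Cap line was a pool of clones grown from single cells, and nothing read here states whether the mock line went through the same cloning. No treatment, time or age separates the groups. The labels speak of cell lines in one place and of mice in another, and nothing says that the 3 libraries of a group came from separate cultures, so p-values measure only the spread between these libraries, which may be technical.

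Reads on genes numbered between 33058719 and 75506562 in mock and between 13770385 and 15364850 in p140Cap libraries, so every mock library was deeper than every p140Cap library. Srcin1, the gene of p140Cap, had 509 to 1192 reads in mock and 30546 to 36989 reads in p140Cap libraries, in keeping with the labels. Levels are given as CPM, reads on a gene scaled to a common TMM-adjusted library size. Of the 11800 genes tested, 71.1% were called by the quasi-likelihood test of edgeR (Benjamini-Hochberg adjusted p below 0.05), 35.2% higher and 35.9% lower in p140Cap cells, and the values of the groups did not overlap for 73.4%. A call is thus the usual outcome in this contrast, and sizes and levels say more about a gene than its call. Of the epithelial markers, Epcam, Cdh1, Krt8, Krt18 and Erbb2 were well measured, with a summed level of the 6 listed markers between 5244 and 5568 CPM in mock and between 6182 and 6338 CPM in p140Cap cells, while Krt19 had 6 and 9 reads in the groups. The summed level of 6 leukocyte markers was 2.04 to 2.34 CPM in mock and 3.23 to 4.09 CPM in p140Cap cells, nearly all of it Cd68, and 4 of the 6, the pan-leukocyte gene Ptprc among them, had 0 reads in every library. The summed level of 6 fibroblast and endothelial markers was 10.2 to 10.9 CPM and 12.1 to 14.6 CPM, with 2 of the 3 tested (Col1a1 and Pecam1) called higher and Col1a2 at 0 reads. Of 6 erythroid markers, 5 had 0 reads, the 4 hemoglobin genes among them, and Alas2 had 18 and 9 reads in the groups (red cells are rich in carbonic anhydrases). What part Cd68, Col1a1 or Pecam1 expressing cells have in the values below was not tested.

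Cells that burn glucose quickly make lactate, CO2 and protons, and they keep their cytosol from becoming acid by moving these products out. Carbonic anhydrases interconvert CO2 and bicarbonate. Car9 and Car12 sit in the plasma membrane with the catalytic domain outside the cell, while Car2 and Car13 are cytosolic. Monocarboxylate transporters carry lactate together with a proton: MCT1, encoded by Slc16a1, is found in most cells, and MCT4, encoded by Slc16a3, is the form typical of strongly glycolytic cells. Basigin (CD147), encoded by Bsg, is the chaperone that brings both to the cell surface. Slc4a7 encodes NBCn1, which brings in sodium and bicarbonate. Car9 is widely used as a marker of hypoxia in tumors, and Car12 as a marker of luminal breast cancer.

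Among the extracellular enzymes, Car9 moved from a low to a substantial level. Car9 (ENSMUSG00000028463; chromosome 4, 43507026 to 43513729 of GRCm38.p6) was at 9.56, 8.34 and 9.40 CPM in the mock libraries and at 157, 168 and 149.9 CPM in the p140Cap libraries. Each p140Cap library was far above each mock library, and the libraries of a group lay close together. The means were 9.10 ± 0.660 CPM and 158 ± 8.83 CPM (SD, n = 3 libraries each), a ratio of 17.4. The log2 fold change was 4.11 (SE 0.07), at position 8 from the highest among the 11800 genes tested. Raw counts were higher too in spite of the lower depth, with 732, 332 and 313 reads in mock and 2387, 2460 and 2042 reads in p140Cap cells. In the GENCODE annotation of GRCm39, the lncRNA gene Gm12454 lies on the strand opposite to Car9 and shares 29.9% of the length of its canonical transcript. Gm12454 is not among the counted genes, and the sources used here do not state if strand entered the counting.

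Car12, the other extracellular enzyme, was already abundant and rose further. Car12 (ENSMUSG00000032373; chromosome 9, 66712296 to 66766845) was at 399, 391 and 404 CPM in the mock libraries and at 1109, 1121 and 1076 CPM in the p140Cap libraries. The groups did not overlap, and the spread within each was small. The means were 398 ± 6.94 CPM and 1102 ± 23.5 CPM (SD, n = 3 libraries each), a ratio of 2.77. The change on the log2 scale was 1.47 (SE 0.05; edgeR, adjusted p = 2.82e-13), larger in size than that of 95.6% of the genes tested. Since RNA was taken from whole cultures, more cells expressing a gene and more RNA per cell cannot be told apart, here or for any gene below.

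The cytosolic enzymes changed little. Car2 (ENSMUSG00000027562; chromosome 3, 14886269 to 14900770) was at 32.3, 29.9 and 30.5 CPM in mock and at 39.3, 37.0 and 37.1 CPM in p140Cap libraries, so that the groups did not overlap but lay near each other. Its means were 30.9 ± 1.27 CPM and 37.8 ± 1.33 CPM (SD, n = 3 libraries each), a difference of 0.29 on the log2 scale (SE 0.06; edgeR, adjusted p = 0.000363). Car13 (ENSMUSG00000027555; chromosome 3, 14641727 to 14663002) starts 244.5 kb away from Car2 on the same chromosome. It was at 52.7, 52.7 and 50.9 CPM in mock and at 58.8, 52.0 and 52.0 CPM in p140Cap libraries, and only p140Cap replicate 1 stood above the mock values. Its log2 fold change of 0.06 (SE 0.06, adjusted p = 0.360, edgeR) did not pass the test, with a 95% interval of 0.958 to 1.13 for the ratio of p140Cap to mock. Without p140Cap replicate 1 the value was -0.01.

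**Figure D1:**
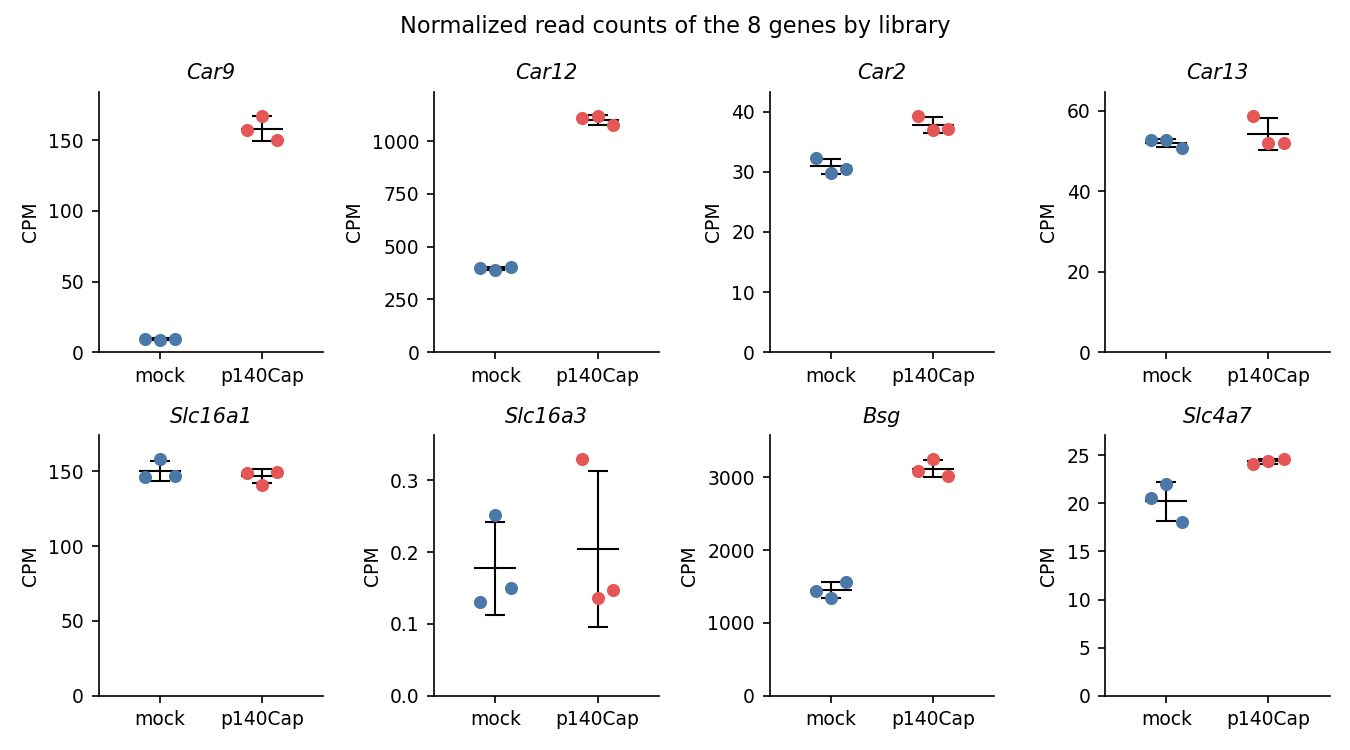
Normalized read counts (CPM, linear axes starting at 0) of the 8 genes in the 3 mock (blue) and 3 p140Cap (red) libraries, with the mean (horizontal line) and SD (bars). Car9, Car12 and Bsg stand far apart between the groups, Car2 and Slc4a7 narrowly, while Car13, Slc16a1 and Slc16a3 overlap, the last on 2 to 10 reads per library.

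Of the genes of MCT1 and MCT4, the first did not pass the test and the second could not be tested. Slc16a1 (MCT1; ENSMUSG00000032902; chromosome 3, 104638664 to 104658462) was at 146, 158 and 146 CPM in mock and at 149, 141 and 149 CPM in p140Cap libraries. Mock replicate 2 had the highest and p140Cap replicate 2 the lowest of the 6 values, and the groups overlapped. Its change on the log2 scale was -0.04 (SE 0.05; edgeR, adjusted p = 0.516), and the 95% interval of the ratio of p140Cap to mock was 0.907 to 1.05. Annotated lncRNA genes, which are not among the counted genes, overlap Slc16a1 on its own strand.

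Slc16a3 (MCT4; ENSMUSG00000025161; chromosome 11, 120948484 to 120959000) was nearly silent, with only 10, 10 and 5 reads in mock and 5, 2 and 2 reads in p140Cap libraries. Pooled within each group, the 25 and 9 reads give a ratio of p140Cap to mock of 1.24, and the 95% exact binomial interval (counting error only) ran from 0.509 to 2.74. A change of this gene was not detectable at this depth. It was tested only without a filter on low counts, where its adjusted p was 0.771 (edgeR). Even these few reads are uncertain, since 52.7% of the length of its canonical transcript is shared with Csnk1d on the opposite strand. Csnk1d was at 186 CPM in both groups.

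Basigin, the partner of these transporters, rose. Bsg (ENSMUSG00000023175; chromosome 10, 79704358 to 79711979) was at 1443, 1349 and 1566 CPM in the mock libraries and at 3088, 3251 and 3024 CPM in the p140Cap libraries. The lowest p140Cap value was well above the highest mock value. The means were 1453 ± 109 CPM and 3121 ± 117 CPM (SD, n = 3 libraries each), a ratio of 2.15. The change on the log2 scale was 1.10 (SE 0.06; edgeR, adjusted p = 5.11e-11), larger in size than that of 91.7% of the genes tested.

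Slc4a7, the bicarbonate importer (ENSMUSG00000021733; chromosome 14, 14703011 to 14799944), was at 20.5, 22.0 and 18.1 CPM in mock and at 24.0, 24.4 and 24.6 CPM in p140Cap libraries. The groups did not overlap, and the mock libraries spread more widely than the p140Cap libraries. Its means were 20.2 ± 2.00 CPM and 24.4 ± 0.283 CPM (SD, n = 3 libraries each), and its change on the log2 scale was 0.27 (SE 0.08; edgeR, adjusted p = 0.00533). The lncRNA gene Gm62400, on the opposite strand, shares 4.8% of the length of its transcript.

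Apart from Car9, 4 of the 6 genes tested were thus higher (Car12, Bsg, Car2 and Slc4a7) and 0 were lower, beside 35.2% higher and 35.9% lower over all genes tested. The same 4 genes were those whose groups did not overlap, beside 73.4% of all genes tested. In size, Car12 and Bsg stood toward the edge of the distribution over all genes, while Car2 and Slc4a7 stood near its middle, with changes larger than those of 46.4% and 43.4% of the genes tested. Every p140Cap library was shallower, and with all libraries thinned to the smallest total each of these calls was kept.

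**Figure D2:**
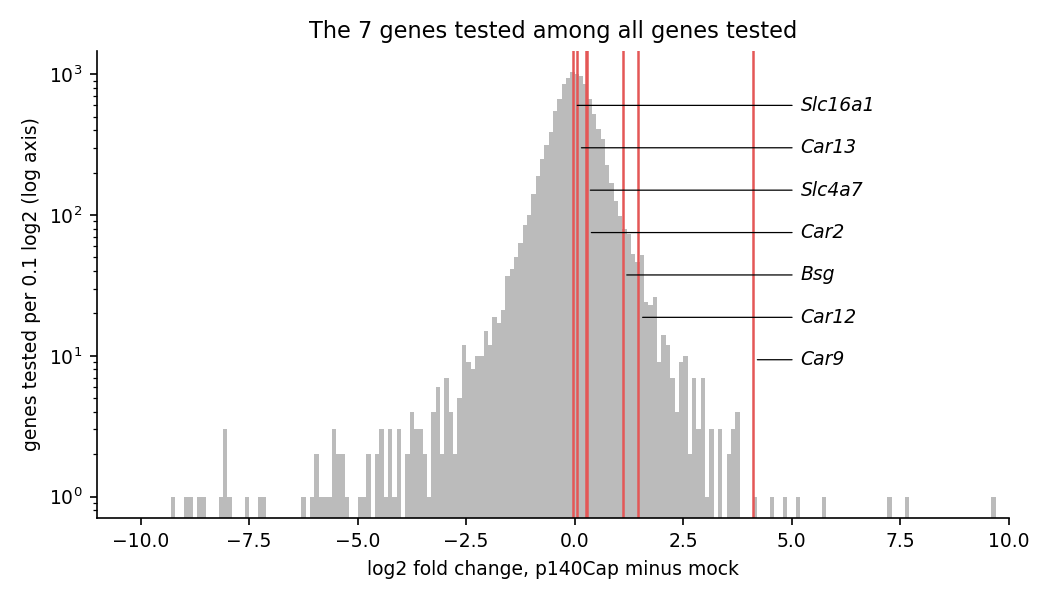
Distribution of log2 fold changes (p140Cap minus mock) over the 11800 genes tested, in steps of 0.1 with a log axis for the number of genes, with the 7 genes tested as red lines. Slc16a1 and Car13 stand at the middle, Car2 and Slc4a7 just to the right of it, Bsg and Car12 on the right shoulder, and Car9 far out at 4.11.

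Levels of different genes were compared per transcript length, as RPKM (CPM divided by the length of the canonical transcript in kb). In mock cells the order was Bsg at 803 RPKM, Car12 at 101, Slc16a1 at 32.7, Car13 at 22.5, Car2 at 15.9, Car9 at 4.50, Slc4a7 at 2.48 and Slc16a3 at 0.038 RPKM (means over 3 libraries). In p140Cap cells Car9 moved from the sixth to the third place, and the other genes kept their order. There the means were 1725 RPKM for Bsg, 280 for Car12, 78.2 for Car9, 31.9 for Slc16a1, 23.4 for Car13, 19.4 for Car2, 3.00 for Slc4a7 and 0.043 RPKM for Slc16a3. In both groups the libraries of neighbouring genes in the order did not overlap. In absolute terms Car9 gained 73.7 RPKM and Car12 gained 179 RPKM, so that the gene with the higher fold change added the smaller amount of transcript.

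**Figure D3:**
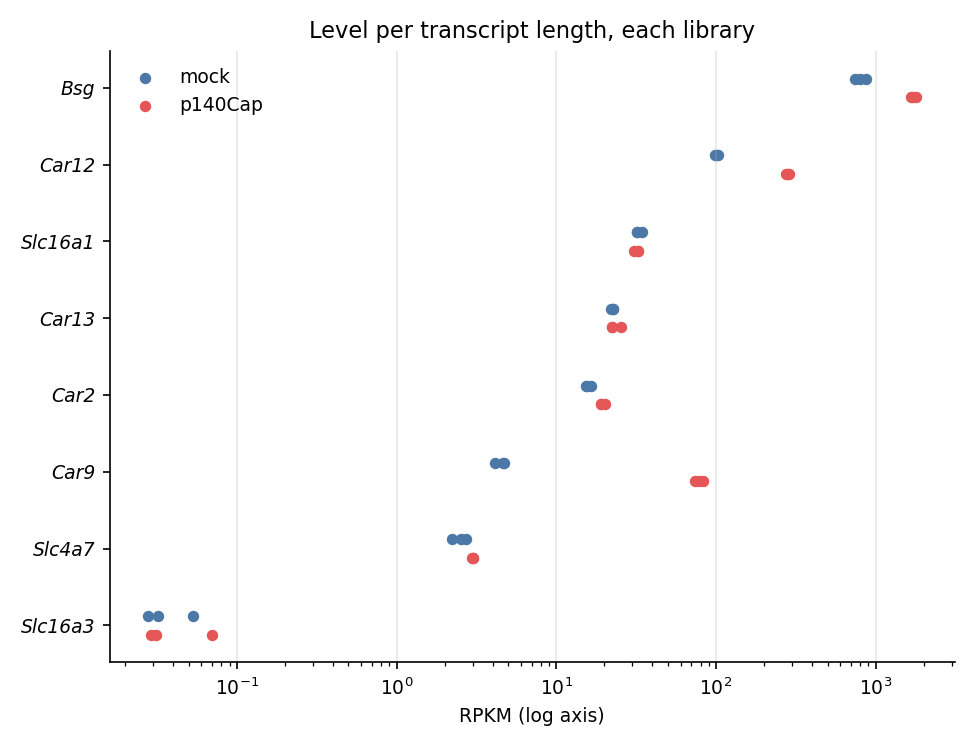
Level per transcript length (RPKM, log axis) of the 8 genes in each mock (blue) and p140Cap (red) library, ordered by the mock mean. Bsg and Car12 lead in both groups, Slc16a3 lies far below the rest, and Car9 crosses from below Car2 to above Slc16a1.

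Among the 4 listed carbonic anhydrases, the makeup shifted toward the extracellular forms. Car5b, a mitochondrial enzyme at 69.4 CPM in mock and 118 CPM in p140Cap cells, is left out of these shares. Car9 made up 4.25% ± 0.238 of the summed RPKM of Car9 and Car12 in mock and 21.8% ± 0.621 in p140Cap cells (SD, n = 3 libraries each). Together Car9 and Car12 made up 73.4% ± 0.595 of the RPKM of the 4 carbonic anhydrases in mock and 89.3% ± 0.562 in p140Cap cells. The sum of the extracellular pair went from 106 to 358 RPKM, beside 38.3 and 42.8 RPKM for the cytosolic pair. For lactate export, Slc16a3 was 0.114% of the RPKM of Slc16a1 and Slc16a3 in mock and 0.136% in p140Cap cells, so that nearly all transcripts of the pair were Slc16a1 in both. The RPKM of Bsg per RPKM of Slc16a1 went from 24.7 ± 2.77 to 54.3 ± 3.81. Since Car9 chose the list and all these values come from the same contrast, the shares are a description. With the union of all annotated exons as length, the share of Car9 was 7.35% and 33.2%, and the order of the 8 genes was the same in each group.

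Of the other carbonic anhydrases, all but Car5b were rare. Of 12 further members of the family, 5 were tested, and 4 were higher and 1 was lower in p140Cap cells (edgeR). Over all genes tested, 35.2% were higher and 35.9% lower. The median log2 fold change of these 5 members was 0.77, beside -0.00 over all genes tested. Car5b, a mitochondrial enzyme, was the most abundant of them and rose from 69.4 ± 3.52 to 118 ± 5.02 CPM (SD, n = 3 libraries each), a difference of 0.77 on the log2 scale (SE 0.05; edgeR, adjusted p = 1.76e-09). Car6, the secreted form known from saliva, rose from 1.52 ± 0.188 to 5.77 ± 0.687 CPM, a difference of 1.94 on the log2 scale (SE 0.15; edgeR, adjusted p = 6.80e-09). Car15, a membrane-anchored form, rose by a log2 fold change of 0.59. Car5a, the other mitochondrial form, had 12 to 41 reads per library and was called higher at 1.01 on the log2 scale (edgeR, adjusted p = 0.00443), a call lost with thinned libraries (adjusted p = 0.124, edgeR) and without p140Cap replicate 2 (adjusted p = 0.0511, edgeR). Car8, a relative without catalytic activity, fell, with 153 reads over the mock and 1 read over the p140Cap libraries. This is a ratio of mock to p140Cap of 44.5, with a 95% exact binomial interval of 7.86 to 1767 for counting error. Car3, Car4 and Car10 had 0 reads in every library, which allows a pooled level of up to 0.02 CPM in mock and 0.069 CPM in p140Cap cells (a floor of 3 reads per group).

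In the transporter families, Slc16a1 had relatives that moved in both directions. Of 12 further SLC16 genes, 5 were tested, and 2 were higher and 3 were lower, with a median log2 fold change of -0.58. Slc16a4 was called higher at 0.37 on the log2 scale (edgeR, adjusted p = 0.0220), a call lost with DESeq2 (adjusted p = 0.0761) and without mock replicate 1, p140Cap replicate 1 or p140Cap replicate 2 (edgeR adjusted p of 0.0716, 0.112 and 0.0796). Slc16a7 (MCT2, a lactate and pyruvate transporter of high affinity) fell from 71.6 ± 2.69 to 42.5 ± 2.64 CPM (SD, n = 3 libraries each), a difference of -0.75 on the log2 scale (SE 0.06; edgeR, adjusted p = 6.08e-09). Slc16a6 fell too, with a log2 fold change of -1.37. Slc16a8 was at -0.58 (adjusted p = 0.0299, edgeR), and its call was lost with DESeq2 (adjusted p = 0.0960), with thinned libraries, and without mock replicate 3, p140Cap replicate 1 or p140Cap replicate 3 (edgeR adjusted p of 0.0689, 0.122 and 0.0603). Of the 2 relatives of basigin, Nptn (neuroplastin) was at 182 and 172 CPM and did not pass the test (log2 fold change -0.08, adjusted p = 0.103, edgeR). Emb (embigin), the usual partner of MCT2, fell from 275 reads over the mock libraries to 1 read over the p140Cap libraries, a ratio of mock to p140Cap of 79.9 (95% exact binomial interval 14.2 to 3167, counting error only). Bsg was thus the only one of the 3 genes of the basigin family that was called higher.

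Beside Slc4a7, 5 of 10 listed SLC4 genes were tested, and 3 were higher and 1 was lower, with a median log2 fold change of 0.17. The anion exchanger gene Slc4a3 was at 0.46 (SE 0.08, adjusted p = 0.000114, edgeR), the sodium bicarbonate cotransporter gene Slc4a4 at 0.24 and Slc4a11 at -0.55. Slc4a1ap, listed by its symbol, encodes an adaptor and no transporter, and did not pass the test. Of 12 sodium/proton exchangers, 4 were tested, and 1 was higher, 1 was lower and 2 did not pass the test, with a median log2 fold change of -0.02. The endomembrane exchanger Slc9a8 fell from 56.5 ± 2.39 to 47.9 ± 3.22 CPM (SD, n = 3 libraries each), a difference of -0.24 on the log2 scale (SE 0.06; edgeR, adjusted p = 0.00179). Each SLC4 and SLC9 gene tested, Slc4a7 included, had a log2 fold change of less than 1 in size.

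Of 25 genes of the V-ATPase, the pump that acidifies lysosomes and in some cells expels protons, 22 were tested, and 10 were higher, 6 were lower and 6 did not pass the test, with a median log2 fold change of 0.09. Atp6v1a, a catalytic subunit, rose from 309 ± 10.8 to 484 ± 6.87 CPM (SD, n = 3 libraries each), or a log2 fold change of 0.65. The membrane subunit Atp6v0a2 fell, with a log2 fold change of -0.61. Atp6v0a4, on 6 to 75 reads per library, was called at -0.85 (adjusted p = 0.0193, edgeR), but not with DESeq2 (adjusted p = 0.0905) nor without mock replicate 1, p140Cap replicate 2 or p140Cap replicate 3 (edgeR adjusted p of 0.0676, 0.0631 and 0.0701), and it was not tested with thinned libraries or a minimum of 10 reads. Of the 5 tested genes of lactate dehydrogenases and the mitochondrial pyruvate carrier, 3 were higher and 0 were lower. Ldha, which turns pyruvate into lactate, was at 2695 ± 143 and 3006 ± 11.2 CPM, a difference of 0.16 on the log2 scale (SE 0.05; edgeR, adjusted p = 0.00828). Without mock replicate 2 the call of Ldha was lost (adjusted p = 0.0566, edgeR). Ldhd, which acts on D-lactate, rose by 1.09 and Ldhb by 0.29 on the log2 scale. The acid and lactate sensors Asic1 and Asic3 were the only 2 of 9 with enough reads, and neither passed the test. Without p140Cap replicate 1, Asic3 did (adjusted p = 0.0359, edgeR). Gpr4, a proton-sensing receptor, fell under the filter on low counts, with 30 reads over the mock and 24 over the p140Cap libraries, whose total was lower, and a p140Cap to mock ratio of pooled CPM of 2.75 (95% exact binomial interval 1.54 to 4.87, counting error only). The alternatives that called it did so as higher, at an adjusted p of 0.00742 without a filter on low counts, 0.00955 without p140Cap replicate 1 and 0.0265 without p140Cap replicate 2 (edgeR). Over all these lists without the 8 genes, 23 of 50 tested genes were higher, 13 were lower and 14 did not pass the test. Their median log2 fold change was 0.12. Over all genes tested, 71.1% were called, 35.2% higher and 35.9% lower, with a median of -0.00. Calls were thus about as common in the lists together as over all genes, and the counts of each list above stand beside the same shares.

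**Figure D4:**
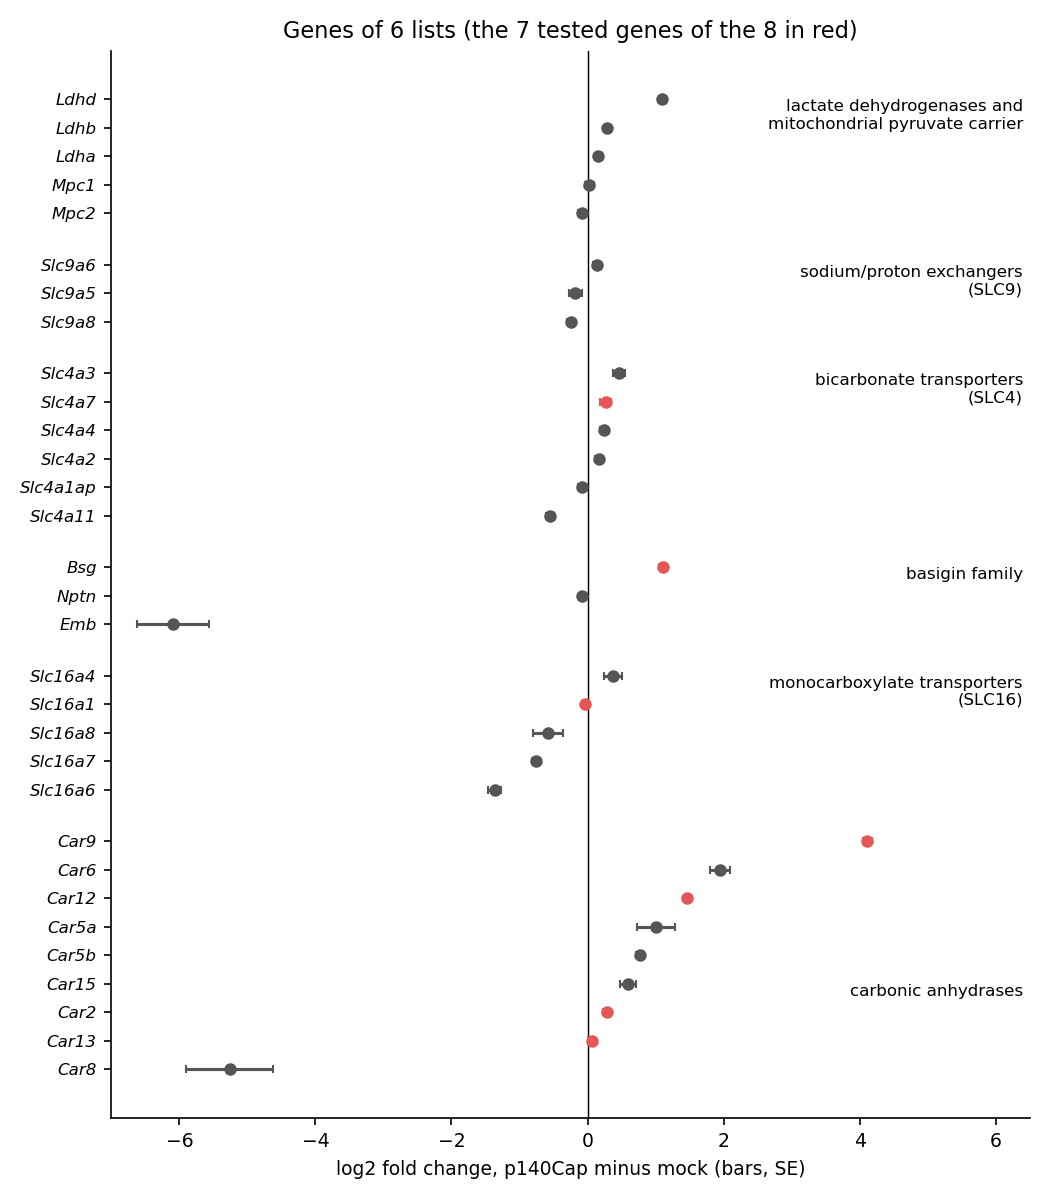
Log2 fold changes (p140Cap minus mock, points, with SE as bars) of tested genes of 6 lists, with the 7 tested genes of the 8 in red and other genes in grey. Most genes lie within 1 log2 unit of 0, Car9 stands far to the right at 4.11, and Car8 and Emb, each with 1 read in p140Cap cells, stand far to the left.

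Genes around the 8 were examined next, as position was not used to choose them. Of 31 annotated genes starting within 250 kb of Car9, 13 were tested, and 8 were higher and 0 were lower in p140Cap cells, with a median log2 fold change of 0.20. Their values ran from -1.09 to 1.70, all below that of Car9. Among all 11800 genes tested, 71.1% were called, 35.2% as higher and 35.9% as lower, and the middle value was -0.00 on the log2 scale. The counts around Car9 and around the genes below are to be read beside these shares. The nearest tested neighbours, Arhgef39 at -10.9 kb and Ccdc107 at -13.7 kb, had log2 fold changes of 0.22 and 0.27. The highest, named after their values were seen, were Hrct1 at 1.70 (SE 0.09) and Tmem8b at 1.31 (SE 0.11), which start 220.2 and 161.9 kb from Car9. Around Car12, 3 of 6 tested neighbours were higher and 3 were lower, with a median of -0.16 and a highest value of 0.32. Around Bsg, 7 of 16 were higher and 7 were lower, with a median of -0.02. Among them Fstl3 and Kiss1r, named after their values were seen, were at 1.34 and 1.22, above Bsg itself. Around Slc16a1, 3 of 5 were higher and 1 was lower, and around Slc16a3, 1 of 11 was higher and 6 were lower. Aph1b, which overlaps Car12 on the opposite strand in the GENCODE annotation of GRCm39, was at 15.6 CPM in mock and 19.6 CPM in p140Cap cells. This is a small fraction of the level of Car12.

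**Figure D5:**
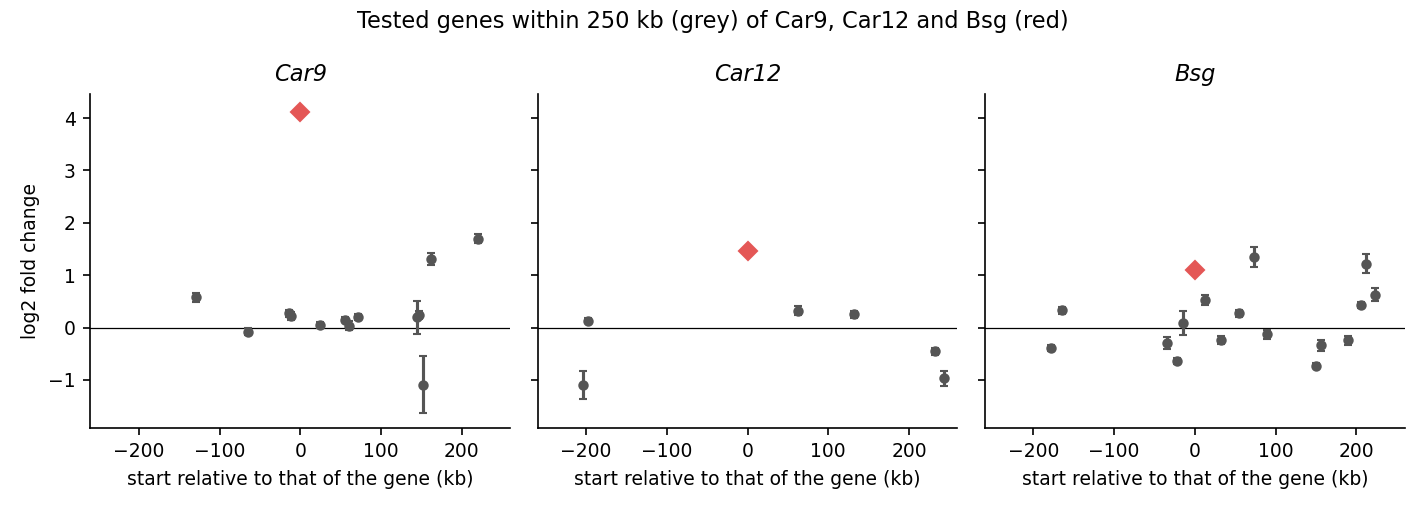
Log2 fold changes (p140Cap minus mock, with SE as bars) of tested genes within 250 kb (grey) of Car9, Car12 and Bsg (red), by the distance of their annotated start (lower coordinate) in kb. Car9 stands above all of its 13 neighbours, with Hrct1 and Tmem8b next at 1.70 and 1.31, and Bsg has 2 neighbours with higher values than its own.

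The genes most like Car9 across the 6 libraries were sought among 10723 genes, by the Euclidean distance between their differences of log2 CPM from the mock mean. The nearest was Zfp217, a zinc finger gene, at a distance of 0.731. It was at 75.8 CPM in mock and 1743 CPM in p140Cap cells (means). Mb, which encodes the oxygen-binding protein myoglobin, followed at a distance of 1.24 with 1.00 and 11.4 CPM, as did Tns4, a tensin gene, with 1.58 and 46.7 CPM. Sema6d and Ppp2r2b stood at distances of 1.81 and 2.24. Their log2 fold changes were 4.52 for Zfp217, 3.53 for Mb, 4.86 for Tns4, 3.13 for Sema6d and 2.94 for Ppp2r2b, beside 4.11 for Car9. The 6 values of a gene are set largely by its fold change, so this likeness is one of size and direction over the same contrast.

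Promoter sequences were examined because Car9 and Slc16a3 are known from other cells as targets of hypoxia-inducible factors, whose core binding letters are ACGTG or GCGTG. The table of RefSeq promoter sequences used here (GRCm38.p6) matched 5 of the 8 genes, all but Car2, Car13 and Bsg. The 250 bases before the annotated start are printed 5′ to 3′ on the strand of the gene for Car9 and Car12, the enzymes that rose, and for Slc16a1 and Slc16a3, the lactate transporters, with each ACGTG or GCGTG on either strand in capitals. Overlapping matches form 1 run of capitals. The windows are chr4:43506776-43507025, chr9:66713436-66713685, chr3:104638414-104638663 and chr11:120948817-120949066, all on the plus strand.
Car9: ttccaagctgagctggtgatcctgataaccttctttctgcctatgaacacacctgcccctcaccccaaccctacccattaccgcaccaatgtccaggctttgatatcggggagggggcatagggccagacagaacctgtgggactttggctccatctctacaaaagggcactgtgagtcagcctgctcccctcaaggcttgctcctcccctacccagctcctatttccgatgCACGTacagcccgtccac
Car12: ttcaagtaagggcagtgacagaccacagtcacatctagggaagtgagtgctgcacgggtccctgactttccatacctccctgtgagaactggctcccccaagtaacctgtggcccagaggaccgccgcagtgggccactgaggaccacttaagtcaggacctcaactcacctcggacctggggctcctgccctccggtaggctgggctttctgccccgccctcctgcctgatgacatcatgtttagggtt
Slc16a1: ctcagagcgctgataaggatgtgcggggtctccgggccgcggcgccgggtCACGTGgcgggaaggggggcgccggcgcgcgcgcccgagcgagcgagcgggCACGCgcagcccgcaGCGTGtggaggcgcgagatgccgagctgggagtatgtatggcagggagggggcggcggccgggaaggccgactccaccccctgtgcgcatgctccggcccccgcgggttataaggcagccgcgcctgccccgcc
Slc16a3: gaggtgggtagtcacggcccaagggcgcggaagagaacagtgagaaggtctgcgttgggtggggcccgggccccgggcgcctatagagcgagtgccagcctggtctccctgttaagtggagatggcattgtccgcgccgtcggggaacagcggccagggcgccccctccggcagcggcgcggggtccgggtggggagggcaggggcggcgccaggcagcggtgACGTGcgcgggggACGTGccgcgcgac

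Car9 held 1 match, ACGTG on the minus strand, from -18 to -14 counted from the annotated start. Car12, whose printed window lies inside the annotated gene, downstream of its first start, held 0. Slc16a1 held 4 matches, of which a pair overlaps as CACGTG from -200 to -195 and the others are GCGTG at -149 and -134. Slc16a3 held 2, ACGTG at -27 and at -14, in a window that likewise begins downstream of the first annotated start. For Slc4a7 the RefSeq table and the GENCODE annotation place the gene on different strands in their builds, so its window was not used. Over 32841 promoters of the same length, 16.6% held ACGTG, 28.2% held GCGTG and 38.6% held at least 1 of these, while 16.7% held at least 2 matches and 2.59% at least 4. The windows of Slc16a1 and Slc16a3 were rich in G and C, at 76.4% and 73.6%, beside 56.4% for Car9 and 59.2% for Car12. Such matches are short letters in a window and say nothing on whether a factor was bound.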

How the data were processed

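Gene counts of 3 mock and 3 p140Cap RNA-Seq libraries, grouped by the labels, were used. The authors deposited counts, that is, whole numbers of reads per gene without normalization and without pooling of replicates. Per the submitters' processing notes, the build mm10 and the tools STAR 2.5 and RSEM 0.1.1 were involved, in roles not given there, while the paper names GRCm39 in its data statement. Libraries were stranded by the methods and poly(A)-selected by the labels.

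Counts were analysed in R 4.3.3 with edgeR 4.0.16. Genes were filtered with filterByExpr by group, scaled with TMM factors and tested with the quasi-likelihood test, with condition as the sole term and Benjamini-Hochberg adjustment over 11800 genes at a threshold of 0.05. SE was obtained as the size of the log2 fold change over the root of F. Exact binomial intervals (95%) on pooled reads cover counting error only. The script was tested on simulated counts. Between libraries of the same group, the mean chi-square value over genes lay between 1.75 and 10.7, so no library was a copy of another. The common coefficient of biological variation was 4.57%. Alternatives were limma-voom (limma 3.58.1), DESeq2 1.42.0, a minimum of 10 reads per library, no low-count filter, RLE factors, the replicate number as a block, thinning to the smallest total and leaving out each library. Union exon length was added after seeing the data.

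The 8 genes, the pathway lists and the markers were chosen with earlier results of these data known. Named genes are the 8, Srcin1, up to 3 called genes per list with the largest change, tested carbonic anhydrases and SLC16 genes, and the 5 genes most like Car9 (prior count of 2, mean log2 CPM of at least 1). List genes that were not called, genes with 0 reads, markers, overlapping genes and neighbours were named after their values were seen. Gene positions and promoters were taken from RefSeq for GRCm38.p6, and lengths, overlaps and transcript similarity from GENCODE for GRCm39. Values of some list genes are not reported here.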

Additional observations from a re-analysis of the deposited data

How the results depend on the processing

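For Car12, Bsg, Car2, Slc4a7, Car13 and Slc16a1, no call changed under any of the 13 alternatives, while Car9 has values only. The log2 fold change of Car9 lay between 4.06 and 4.16, of Car12 between 1.44 and 1.48, of Bsg between 1.05 and 1.16, of Car2 between 0.26 and 0.32 and of Slc4a7 between 0.20 and 0.32. The largest adjusted p among the called genes was 0.0213, for Slc4a7 (edgeR, DESeq2 and limma-voom compared). Car13, between -0.01 and 0.09, and Slc16a1, between -0.07 and -0.00, were called under none. With the replicate number as a block, 3980 genes were higher and 4054 lower, beside 4157 and 4231 without it, and the calls of these 6 genes were the same. Deviations of libraries with the same number correlated at -0.030, -0.106 and -0.057, and no library correlated best with its own number. No pairing by number was thus seen, but deviations from means of 3 libraries cannot decide whether libraries shared a preparation or run.

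Counts in the lists moved with the filter, the test and the libraries kept. The number of lower carbonic anhydrases beside the 8 genes was 0 with at least 10 reads in every library and 0 with thinned libraries, and of lower basigin relatives 0 with at least 10 reads, settings in which Car8 and Emb, respectively, were not tested. Higher carbonic anhydrases numbered 3 with thinned libraries, and 3 to 5 with each library left out in turn. With DESeq2, higher SLC16 genes numbered 1 and lower SLC16 genes 2. Without a filter on low counts, 5 carbonic anhydrases and 1 acid or lactate sensor were higher and 2 SLC9 genes were lower. With each library left out in turn, higher SLC16 genes numbered 1 to 2, higher SLC9 genes 1 to 2, lower SLC9 genes 1 to 2 and higher sensors 0 to 2. In the same settings lower SLC16 genes and higher SLC4 genes each numbered 2 to 3. Higher V-ATPase genes numbered 8 to 11 and lower ones 4 to 6.

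With the union of exons as length, added after seeing the data, RPKM in mock and p140Cap cells was 523 and 1124 for Bsg, 47.0 and 130.2 for Car12, 28.4 and 27.7 for Slc16a1, 20.8 and 21.7 for Car13, 7.01 and 8.58 for Car2, 3.73 and 64.9 for Car9, 1.32 and 1.59 for Slc4a7, and 0.0157 and 0.0181 for Slc16a3. The share of Car9 in Car9 and Car12 was then 7.35% and 33.2%, and that of Slc16a3 in Slc16a1 and Slc16a3 was 0.0546% and 0.0648%. Over all results and alternatives, 471 values stayed on the same side or within the spread and 34 moved. Depth limits what can be said of Slc16a3, Car8 and Emb.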
